A study of Mus musculus with 32 samples.

Results

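Mouse livers with an inducible deletion of Rps6 were compared between 30 h after partial hepatectomy and the resting state at 0 h. The comparison holds the arrays whose titles give the time and the mx-cre PLUS genotype, 3 at 30 h and 4 at 0 h, which is 7 of the 32 arrays of the study. All 7 arrays hold liver RNA from male C57BL/6 mice of 3 months that were homozygous for floxed RPS6 and carried the mx-cre transgene, called Cre plus here. RPS6 is a protein of the small ribosomal subunit, and partial hepatectomy is an operation that takes out some liver lobes and leaves the rest to regrow. In mx-cre mice the recombinase is driven by an interferon-responsive promoter, so that injection of polyinosinic-polycytidylic acid, an artificial RNA duplex, induces deletion of the floxed gene. The promoter is not specific to hepatocytes, and both times of this comparison share the deletion and the injection that the submitters' design text describes. The other arrays came from Cre plus livers at 20 and 40 h and from mice of the same strain, age and floxed genotype without the transgene, called Cre minus, at the same 4 times. The sources used here do not give whether Cre minus mice were injected or how long before surgery Cre plus mice were. The labels name no sham-operated livers, so the loss of tissue cannot be told apart from the operation itself.

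After partial hepatectomy, hepatocytes that were at rest re-enter the cell cycle: immediate early and acute phase genes rise first, ribosome production increases, and DNA synthesis and mitosis follow. Meanwhile the remaining tissue has to keep up the metabolic and secretory functions of the whole organ. Loss of a ribosomal protein impairs the making of ribosomes, and free ribosomal proteins can bind MDM2, the ubiquitin ligase that keeps p53 low.

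The values are deposited log2 expression levels, on which 1 unit is a 2-fold difference. A probe set was called when its adjusted p was under 0.05 in limma's fit over all 32 arrays, with the labelled batch (PHX2 or PHX3) as a covariate. Differences are 30 h minus 0 h in log2 units, each followed by its standard error (SE), and levels are compared between arrays and never between genes. Of the 9249 probe sets above the 30th percentile of their array on at least 3 arrays, 8262 are annotated to 1 gene and represent 6786 genes. At 0 h arrays A and B were in batch PHX3 and arrays C and D in PHX2. At 30 h array A was in PHX3 and arrays B and C in PHX2. The labels do not say that arrays of a group are separate mice, so p-values cover only the spread among these samples, which may be technical.

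The targeted gene was low at both times. The Rps6 level was 7.27, 6.97, 6.76 and 6.24 in arrays A to D at 0 h, and 7.08, 7.08 and 6.51 in arrays A to C at 30 h. In Cre minus livers it lay between 10.99 and 11.27 at 0 h and between 11.33 and 11.62 at 30 h. Every Cre plus array was thus below every Cre minus array at both times, and the Cre plus groups overlapped each other. The Rps6 difference at 30 h was 0.12 (SE 0.17, limma adjusted p = 0.717). The probe set is annotated to Rps6 and to a pseudogene, Rps6-ps4, and the sources used here do not say where it lies relative to the deleted sequence.

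Hepatocyte markers were high in all 7 arrays. Alb, which encodes serum albumin, stayed between 13.68 and 13.83, and the summed level of 7 hepatocyte markers ran from 15.61 to 15.68 at 0 h and from 15.66 to 15.71 at 30 h. Of those 7 markers, 2 were called, Tat higher and Ttr lower. Arrays at 0 h resembled each other closely, with a mean correlation with their own group of 0.989 to 0.991. At 30 h that correlation was 0.9495 for array A, 0.972 for array B and 0.967 for array C. Array A thus stood apart, and since it was also the only array of batch PHX3 at 30 h, the array and the batch cannot be told apart. In whole liver, fewer cells of a type and less RNA per cell cannot be told apart either.

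In Cre plus livers 915 of 9249 probe sets (9.89%) were called at 30 h, 329 of them higher (3.56%) and 586 lower (6.34%). At least a 2-fold difference was reached by 246 of these, 119 higher and 127 lower. By 1 probe set per gene, 238 genes were higher (3.51% of 6786) and 473 lower (6.97%), and the median difference over all genes was -0.01. These shares of all genes, from the fit with all arrays, are the background for every gene list below. The groups did not overlap in 839 of the 915 called probe sets, against 2297 of all those tested (24.8%). Called probe sets had the same sign in both batches in 914 cases. The fit pools both batches, which favours such agreement, so this count is no separate support. How many were called depended on single arrays: 494 without 0 h array C, 562 without 0 h array D, 610 without 30 h array A and 423 without 30 h array B. By 1 probe set per gene, 118 genes were higher and 218 lower without 30 h array B. Those counts were 132 and 267 without 0 h array C, and 163 and 306 without 30 h array A. A list count that falls under an omission is to be read beside this general loss of calls. The calls that held whichever of the 7 arrays was left out numbered 238, and a call is described below as held by every omission when it is among them.

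**Figure D1:**
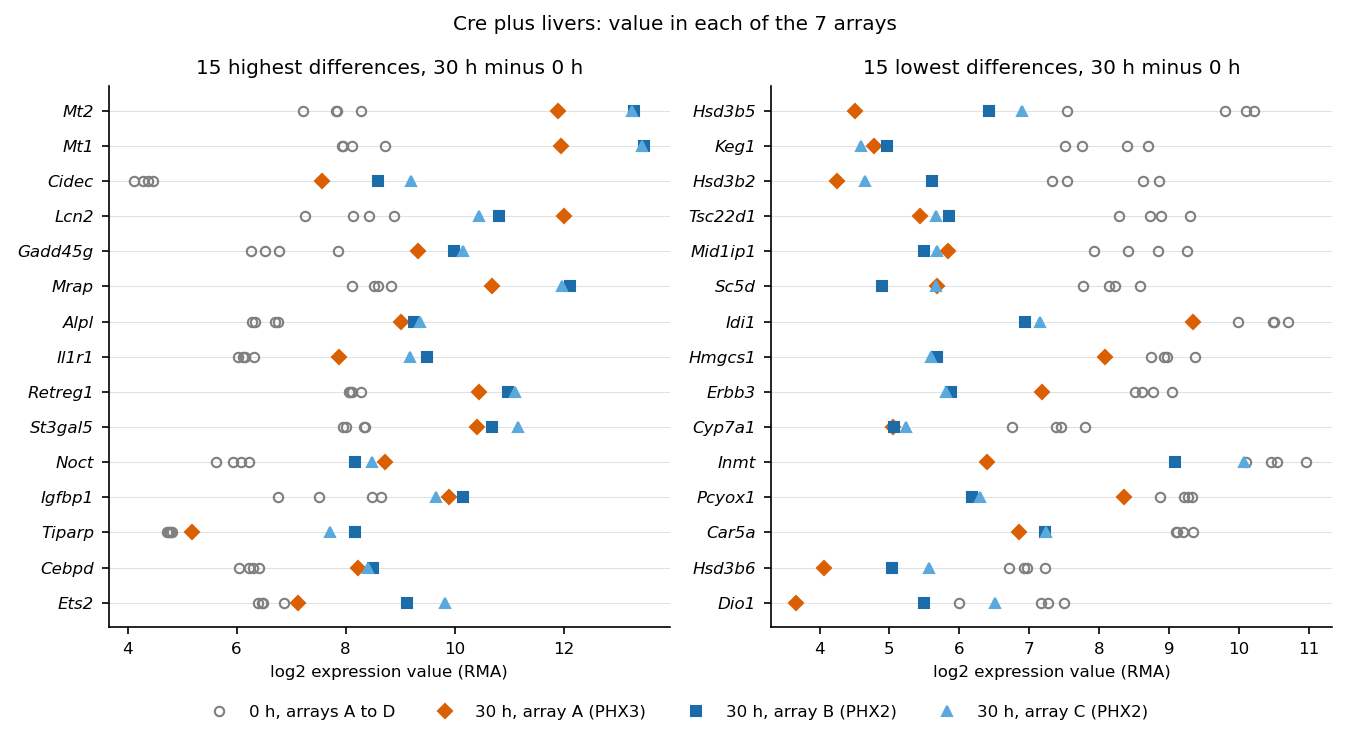
Log2 expression value (horizontal axis) of the 15 genes with the highest and the 15 with the lowest called difference, in each of the 4 arrays at 0 h (open circles) and the 3 at 30 h (filled symbols). Mt1 and Mt2 lie below 9 in every 0 h array and above 11 in every 30 h array, while 30 h array A sits near the 0 h arrays for Tiparp, Idi1 and Pcyox1.

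The metallothioneins, small proteins that bind zinc and copper and are induced by metals and glucocorticoids, had the highest differences. The Mt2 level was 7.84, 7.22, 8.28 and 7.82 at 0 h and 11.89, 13.29 and 13.25 at 30 h. For Mt1 the values were 8.12, 7.93, 8.72 and 7.95 at 0 h and 11.96, 13.48 and 13.43 at 30 h. All 3 arrays at 30 h were far above all 4 at 0 h, and array A was the lowest of the 3. Mt2 rose by 4.93 (SE 0.48, limma adjusted p = 6.41e-07), a 30.6-fold difference, and Mt1 by 4.68 (SE 0.55, adjusted p = 1e-05), a 25.7-fold difference. Both calls were held by every omission.

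The promoter windows of both genes are shown because metallothioneins are the textbook example of genes that the metal-responsive factor MTF1 controls through repeated short elements. Each window runs from 250 bases before RefSeq's annotated start to 30 bases after it, on the plus strand of mouse chromosome 8, build GRCm38.p6 (chr8:94178839-94179118 for Mt1 and chr8:94172368-94172647 for Mt2). Capitals mark matches on either strand to the metal response core, searched as TGCACNC or TGCGCNC.
Mt1: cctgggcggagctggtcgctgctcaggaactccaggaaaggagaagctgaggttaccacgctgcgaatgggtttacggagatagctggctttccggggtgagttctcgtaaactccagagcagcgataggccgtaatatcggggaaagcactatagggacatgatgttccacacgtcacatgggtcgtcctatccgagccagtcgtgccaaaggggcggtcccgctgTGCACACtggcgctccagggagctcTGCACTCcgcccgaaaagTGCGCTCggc
Mt2: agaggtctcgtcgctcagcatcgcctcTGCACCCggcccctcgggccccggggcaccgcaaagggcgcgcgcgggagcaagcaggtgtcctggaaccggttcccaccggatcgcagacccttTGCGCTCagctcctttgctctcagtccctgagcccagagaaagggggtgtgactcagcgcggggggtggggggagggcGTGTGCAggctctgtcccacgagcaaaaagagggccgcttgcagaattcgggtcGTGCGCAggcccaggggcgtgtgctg
The Mt1 window holds 3 matches and the Mt2 window 4, none of which overlap. Relative to RefSeq's annotated start, those of Mt1 begin at -23, 3 and 21 and those of Mt2 at -223, -128, -50 and 5. Matches at positive positions lie after the start and not before it. At least 1 match is present in 24.1% of all 32851 RefSeq windows of this length, at least 2 in 6.37% and at least 4 in 0.405%. The share with at least 3, the count of Mt1, was not computed, and bases outside these windows were not searched. A match is a description of these letters and not of binding.

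Of 26 tested acute phase genes, whose products respond to inflammation, 8 were called higher and 0 lower, with a median of 0.34, beside 3.51% and 6.97% of all genes. Between 4 and 6 were called higher when 1 array was left out. Besides the metallothioneins, Lcn2 and Il1r1 led the list. Lcn2, a siderophore-binding protein, had levels of 8.43, 8.14, 8.88 and 7.25 at 0 h and of 12, 10.81 and 10.44 at 30 h. Il1r1, the interleukin-1 receptor, went from 6.32, 6.03, 6.12 and 6.16 to 7.89, 9.50 and 9.18. Neither gene overlapped between the times, with Lcn2 highest in array A and Il1r1 lowest there. The Lcn2 difference was 3.00 (SE 0.64, adjusted p = 0.0046) and that of Il1r1 2.62 (SE 0.53, adjusted p = 0.00347), both held by every omission. The other tested Lcn2 probe set had a mean level of 5.69 at 0 h and 5.75 at 30 h and was not called (adjusted p = 0.906). Cd14, a co-receptor for lipopolysaccharide, was higher by 1.99 (adjusted p = 0.0427), a call that the omission of any of the 7 arrays ended.

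Immediate early and growth-arrest genes, which are known for rising within the first hours after injury, were also called higher at 30 h. Of 32 tested members 9 were called higher and 0 lower, 31 had a positive difference, and the median was 0.52. When an array was left out, between 6 and 8 were called higher. Gadd45g, which encodes a stress sensor that inhibits the cell cycle kinase CDK1, stood at 6.78, 7.86, 6.52 and 6.26 at 0 h and at 9.33, 9.99 and 10.16 at 30 h. For Cebpd, a transcription factor of the acute phase, the levels were 6.31, 6.41, 6.23 and 6.05 against 8.23, 8.503 and 8.41. Cebpb, its relative in liver regeneration, had 9.19, 9.53, 8.57 and 8.74 at 0 h and 10.76, 10.44 and 10.92 at 30 h. These 3 genes separated the times in every array, and in none of them did array A leave the other 30 h arrays by as much as the times were apart. They rose by 2.98 (SE 0.44, adjusted p = 0.000169), 2.11 (SE 0.28, adjusted p = 5.29e-05) and 1.75 (SE 0.22, adjusted p = 2.48e-05) in that order, and each call was held by every omission. Myc, the growth-promoting transcription factor, rose from levels of 3.35 to 3.998 at 0 h to 4.96, 5.98 and 5.17 at 30 h, a difference of 1.72 (SE 0.40, adjusted p = 0.00901). All 4 values at 0 h lie below the 30th percentile of their arrays, so Myc was tested only through arrays where it is higher and the size of its difference is uncertain. Only the omission of 30 h array B ended the Myc call. Ets2, another transcription factor of growth signalling, was at 7.12 in 30 h array A, beside 6.396 to 6.87 at 0 h, and at 9.13 and 9.82 in arrays B and C. Its difference of 2.03 (SE 0.54, adjusted p = 0.0185) lost its call without 0 h array C or D or without 30 h array B or C. Ifrd1, a regulator that responds to stress and growth signals, rose from between 4.64 and 5.47 to 6.41, 6.43 and 6.71, by 1.42 (SE 0.34, adjusted p = 0.00959).

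Of 19 tested genes listed as targets of p53, the tumour suppressor that halts the cell cycle, 4 were called higher and 0 lower. The list's median was -0.06, and 2 were called without 30 h array B. Those called with all arrays were Cdkn1a, Btg2, Tnfrsf1b and Ddit4. Btg2 is also in the immediate early list and Ddit4 in the ATF4 stress list described below. Tnfrsf1b is counted only because the list holds it, and whether p53 drives any of the 4 was not tested. Cdkn1a, the p21 inhibitor of cyclin-dependent kinases, had levels of 8.54, 8.905, 8.92 and 8.598 at 0 h and of 9.26, 10.48 and 11.01 at 30 h. Btg2, an antiproliferative factor, was at 8.55, 8.43, 8.17 and 8.46 against 9.03, 10.23 and 10.24. Ddit4, an inhibitor of the growth kinase complex mTORC1, was at 6.55, 6.39, 5.87 and 5.92 against 6.89, 8.37 and 8.11. In all 3 the groups did not overlap, but array A lay closer to the 0 h arrays than to arrays B and C. Cdkn1a rose by 1.39 (SE 0.38, adjusted p = 0.021), Btg2 by 1.36 (SE 0.30, adjusted p = 0.00548) and Ddit4 by 1.58 (SE 0.39, adjusted p = 0.0108). Within PHX2 the Cdkn1a difference was 1.99 and within PHX3, where 30 h has only array A, it was 0.54. The second Cdkn1a probe set had a difference of 1.38 (adjusted p = 0.0516). Without 0 h array C or D, or without 30 h array B or C, the Cdkn1a call was lost, and the Ddit4 call without 30 h array B. Tnfrsf1b, a receptor for tumour necrosis factor, rose by 1.30 (SE 0.24, adjusted p = 0.00161). Mdm2, the feedback inhibitor of p53, was at 6.73 to 6.98 at 0 h and at 7.51, 6.99 and 6.87 at 30 h (difference 0.30, adjusted p = 0.234).

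Several genes of ribosome biogenesis, the assembly of ribosomal subunits in the nucleolus, rose. Of 56 tested members 15 were called higher, 0 lower and 41 did not pass, 48 had a positive difference, and the median was 0.26. Leaving out 1 array gave between 9 and 15 calls, with 9 without 0 h array C or 30 h array A. Nop58, a core protein of box C/D small nucleolar particles, stood at 4.73, 5.40, 4.79 and 5.13 at 0 h and at 6.64, 6.51 and 6.69 at 30 h. Gnl3, the nucleolar GTPase nucleostemin, was at 5.03, 5.21, 5.32 and 5.87 and then at 6.69, 7.23 and 6.79. All 30 h arrays were above all 0 h arrays for both, and the 30 h arrays were close together. Nop58 rose by 1.61 (SE 0.25, adjusted p = 0.000243) and Gnl3 by 1.49 (SE 0.24, adjusted p = 0.000451), held by every omission. Nhp2, a pseudouridylation protein, rose by 1.30 (SE 0.26, adjusted p = 0.00284), also under every omission. Eif6, which keeps the large subunit from joining too early, rose by 1.13 (SE 0.31, adjusted p = 0.02), lost without 30 h array A. Npm1, the nucleolar protein nucleophosmin, rose by 1.07 (SE 0.29, adjusted p = 0.02), lost without 0 h array C or without 30 h array A or B.

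Ribosomal proteins themselves, other than Rps6, had a median of 0.14 and 24 positive differences among 28 tested. Only 1 gene was called higher, beside 3.51% of all genes. That gene was Rplp0, an acidic protein of the large subunit's stalk, at 11.56 to 11.96 at 0 h and 12.32, 12.05 and 11.85 at 30 h. The groups overlapped, the difference was 0.32 (SE 0.10, adjusted p = 0.0359), and only the omission of 0 h array B or 30 h array C left the call in place. Of 36 translation factors 5 were called higher and 2 lower, beside 3.51% and 6.97% of all genes. The median was 0.11, and 3 were called higher without 0 h array C or 30 h array A. Etf1, the factor that releases finished chains at stop codons, rose by 1.22 (SE 0.18, adjusted p = 0.00019), and 4 other probe sets of the gene had differences of 0.16 to 1.07. Eif5, which completes start codon selection, rose by 0.94 (SE 0.23, adjusted p = 0.0105). Eif4ebp2, an inhibitor of cap-dependent initiation, fell by 1.09 (SE 0.28, adjusted p = 0.0137), lost without 30 h array A or B.

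Few genes of the cell cycle were called at this time. Among 16 G1 cyclins and regulators only Myc was called, among 14 genes of replication licensing 0, among 26 of the replication fork and nucleotide supply only Tk1, and among 29 of mitosis 0. The medians of the 4 lists were -0.02, 0.07, -0.03 and 0.01. The lists have 21, 18, 28 and 36 genes on the array, and those below the filter were not tested. The largest licensing difference, that of Mcm10, was -1.30 (SE 0.42, adjusted p = 0.0505), without overlap between the times. Mcm10 was just short of a call at 30 h and was called lower at 20 h (difference -1.29, adjusted p = 0.0369). Tk1, thymidine kinase, fell by 0.75 (SE 0.21, adjusted p = 0.0224), lost without 0 h array C or without 30 h array A or B, and its other probe set had a difference of 0.30. Ccnd1, the cyclin D1 gene that drives G1, was at 6.92, 7.72, 6.72 and 7.44 at 0 h and at 8.79, 6.64 and 6.80 at 30 h. Array A was the highest of the 7 and arrays B and C were among the lowest, so that the difference was 0.30 with an SE of 0.59 (adjusted p = 0.803). Its sign was negative without array A. Pcna, the sliding clamp of DNA polymerase, lay at 6.15 to 6.41 at 0 h and 6.38 to 6.74 at 30 h (difference 0.29, SE 0.22, adjusted p = 0.436). Rrm2, which encodes the small chain of the enzyme that makes deoxyribonucleotides, lay at 4.31 to 4.53 and then at 4.73 to 4.96 (difference 0.42, SE 0.30, adjusted p = 0.418). It was above the 30th percentile in 0 of 4 arrays at 0 h and 2 of 3 at 30 h, so the size of its difference is uncertain. In Cre minus livers Rrm2 rose by 1.07 (adjusted p = 0.0323), and the genotype difference for this gene was not called. In Cre plus livers Rrm2 was called higher than at 0 h at 20 h, by 0.93 (limma adjusted p = 0.0337). It was not called at 40 h (difference 0.41, adjusted p = 0.371).

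**Figure D2:**
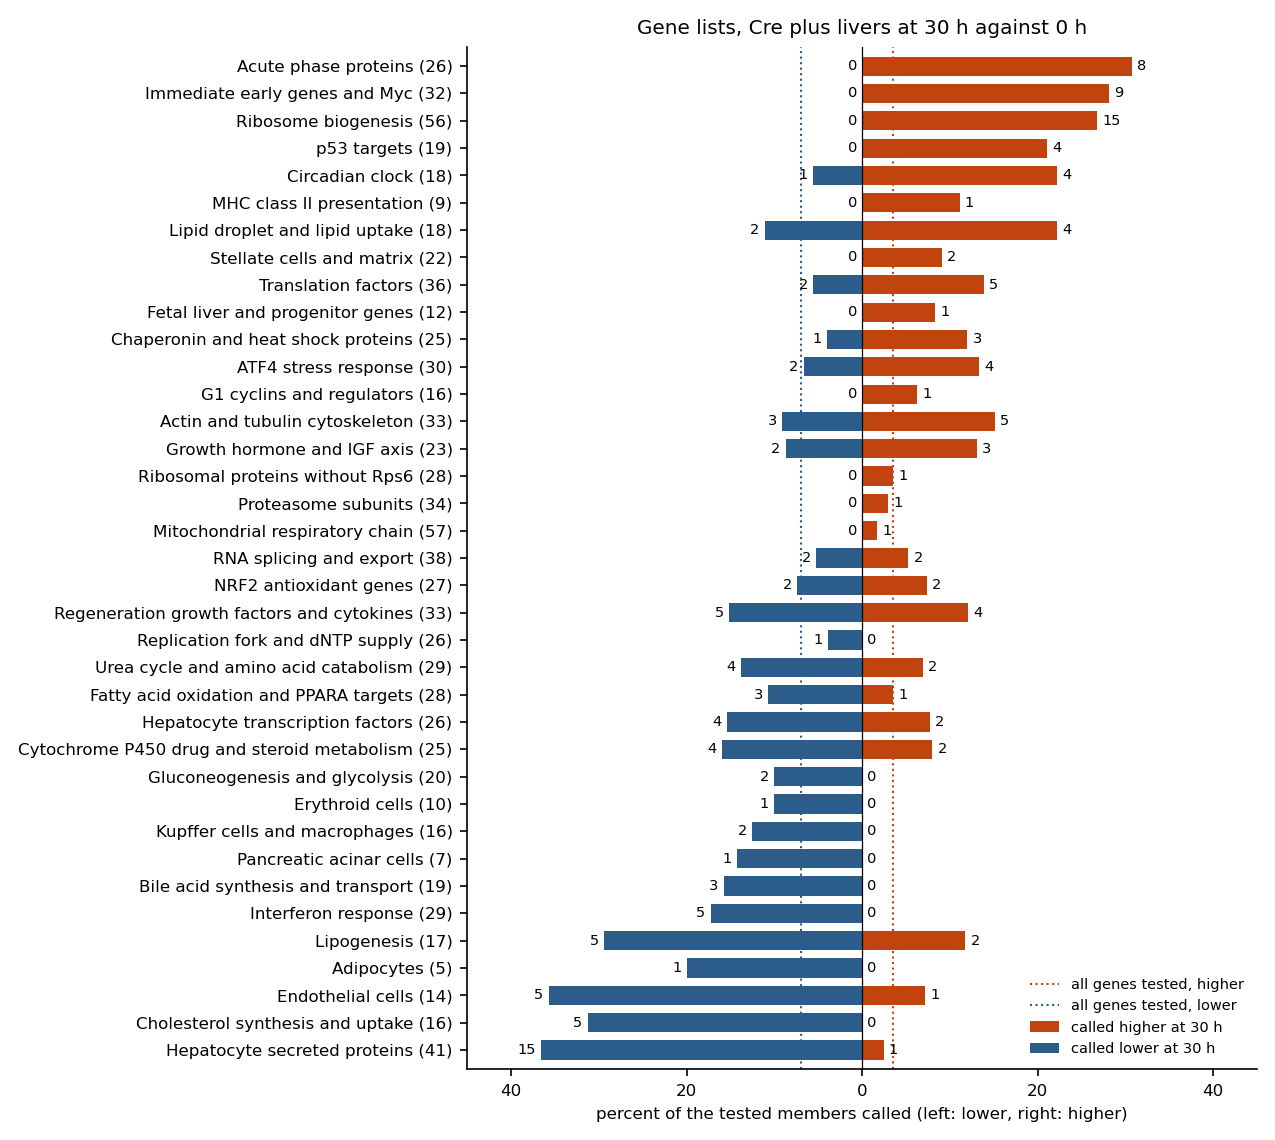
Percent of tested members of each gene list called higher (right, red) or lower (left, blue) at 30 h against 0 h in Cre plus livers. The numbers at the bars count the called members, the number after each name counts the tested members, and the dotted lines mark the shares over all 6786 genes, 3.51% higher and 6.97% lower. Lists without a called member are not drawn.

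Of 16 tested genes of cholesterol synthesis and uptake 5 were called lower and 0 higher, 15 had a negative difference, and the median was -1.13. This count fell to 1 without 30 h array B and to 2 without 0 h array C or 30 h array C, while the median stayed between -1.24 and -1.01. Sc5d, a late desaturase of the pathway, stood at 8.23, 8.58, 8.14 and 7.78 at 0 h and at 5.69, 4.898 and 5.66 at 30 h. Idi1, which isomerises the isoprenoid building block, went from 10.49, 10.70, 9.996 and 10.51 to 9.35, 6.94 and 7.16. For Hmgcs1, the synthase that feeds the mevalonate pathway, the values were 8.98, 9.38, 8.93 and 8.74 and then 8.08, 5.685 and 5.602. No 30 h array reached the 0 h range in any of the 3, but for Idi1 and Hmgcs1 array A was within 1 log2 unit of it and more than 2 units above arrays B and C. Sc5d fell by 2.64 (SE 0.49, adjusted p = 0.00161) under every omission, and its second probe set fell by 2.61. Idi1 fell by 2.40 (SE 0.66, adjusted p = 0.0215) and Hmgcs1 fell by 2.35 (SE 0.64, adjusted p = 0.0217), and both lost the call without 0 h array C or D or without 30 h array B or C. Dhcr7, the last reductase of the pathway, fell by 1.59 (SE 0.44, adjusted p = 0.0225), lost without 0 h array C or 30 h array A or B. Mvd, the mevalonate diphosphate decarboxylase, fell by 1.01 (SE 0.27, adjusted p = 0.02), lost without 0 h array B or any of the 3 arrays at 30 h.

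The windows of Hmgcs1 and Idi1 are printed as those of early enzymes of this pathway, on which the 30 h arrays split. The pathway's promoters are known for a sterol element, bound by SREBP factors, beside CCAAT boxes, bound by NF-Y. Both windows, from RefSeq, lie on the plus strand of chromosome 13 (GRCm38.p6, chr13:119690101-119690380 and chr13:8885356-8885635), and capitals mark matches on either strand to the sterol element TCACNCCAC or to CCAAT.
Hmgcs1: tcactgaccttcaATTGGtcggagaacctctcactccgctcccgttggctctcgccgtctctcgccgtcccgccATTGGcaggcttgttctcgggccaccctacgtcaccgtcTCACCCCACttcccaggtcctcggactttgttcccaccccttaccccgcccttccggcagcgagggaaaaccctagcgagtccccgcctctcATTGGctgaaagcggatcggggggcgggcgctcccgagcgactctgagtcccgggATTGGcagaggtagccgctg
Idi1: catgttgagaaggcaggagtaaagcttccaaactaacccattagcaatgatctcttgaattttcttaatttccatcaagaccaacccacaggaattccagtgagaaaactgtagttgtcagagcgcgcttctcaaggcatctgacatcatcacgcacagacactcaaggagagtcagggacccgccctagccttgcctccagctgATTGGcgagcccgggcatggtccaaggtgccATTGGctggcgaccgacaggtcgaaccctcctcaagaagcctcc
The Hmgcs1 window holds 1 sterol element, at -137 to -129 relative to the start, and 4 CCAAT boxes. Idi1 has 0 sterol elements with these letters and 2 CCAAT boxes, and no matches overlap. The sterol element is found in 1.18% of all 32851 windows, and at least 1, 2 and 4 CCAAT boxes are found in 36.1%, 11.1% and 0.989%.

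Lipogenic genes moved both ways, 5 of 17 called lower and 2 higher, with a median of -0.37, and 3 lower without 30 h array B. Mid1ip1, which helps acetyl-CoA carboxylase to polymerise, fell by 2.85 (SE 0.48, adjusted p = 0.000524) on 1 probe set and by 1.13 (SE 0.18, adjusted p = 0.000451) on the other, both under every omission. Its levels on the first probe set were 8.41, 9.26, 8.85 and 7.93 at 0 h and 5.84, 5.49 and 5.68 at 30 h, with no overlap. Elovl6, a fatty acid elongase, fell by 1.71 (SE 0.43, adjusted p = 0.0134), lost without 30 h array B. Lpin1, a phosphatidate phosphatase that also acts with PPAR coactivators, was at 7.54, 7.67, 7.33 and 7.39 at 0 h and at 9.11, 10.17 and 9.46 at 30 h. Every 30 h array was above every 0 h array, and Lpin1 rose by 2.01 (SE 0.58, adjusted p = 0.0279), lost without 0 h array C or D or without 30 h array A or B. In the list of lipid droplet and uptake genes 4 of 18 were called higher and 2 lower, with a median of 0.13. Every omission gave 2 to 3 higher, 4 of them 0 lower (0 h array C or D, 30 h array B or C), and the median was 0.01 without 30 h array A. Cidec, a protein that enlarges lipid droplets, stood at 4.12, 4.38, 4.47 and 4.29 at 0 h and at 7.57, 8.59 and 9.20 at 30 h. The gap between the times was over 3 log2 units in every pair of arrays, but the 4 values at 0 h lie below the 30th percentile of their arrays (4.70 to 4.77), so the gene was tested only through arrays where it is higher and the size of its difference is uncertain. Its difference of 4.002 had an SE of 1.12 (adjusted p = 0.024), and 5 of the 7 omissions ended the call, those of 0 h arrays C and D and of all 3 arrays at 30 h. In Cre minus livers at 30 h the Cidec level ranged from 4.47 to 10.10, which entered the shared estimate of the spread. Plin2, a coat protein of lipid droplets, rose by 1.76 (SE 0.43, adjusted p = 0.0115), and Apoa4, an apolipoprotein, by 1.89 (SE 0.39, adjusted p = 0.00383), both under every omission.

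Steroid dehydrogenases of the Hsd3b family were among the lowest differences. Hsd3b5, a steroid reductase that male mouse liver makes under growth hormone, was at 10.10, 9.81, 7.54 and 10.22 at 0 h and at 4.51, 6.43 and 6.89 at 30 h. Keg1, a glycine N-acyltransferase-like gene, was at 8.40, 7.75, 7.51 and 8.70 and then at 4.79, 4.96 and 4.59. For Hsd3b2 the values were 8.85, 7.54, 7.33 and 8.63 at 0 h and 4.25, 5.61 and 4.65 at 30 h. None of the 3 overlapped, although Hsd3b5 in 0 h array C was more than 2 units below the other resting arrays. Hsd3b5 fell by 3.53 (SE 0.84, adjusted p = 0.00922), lost without 30 h array A, and Keg1 by 3.27 (SE 0.49, adjusted p = 0.000169), held by every omission. Hsd3b2 fell by 3.27 (SE 0.58, adjusted p = 0.00105) and Hsd3b6 fell by 2.06 (SE 0.46, adjusted p = 0.00623), the latter lost without 30 h array A. At 30 h Hsd3b5, Keg1 and Hsd3b6 were above the 30th percentile in 2 of 3 arrays and Hsd3b2 in 1. The Hsd3b genes are close paralogs, and probes for one may bind transcripts of another. In the growth hormone and IGF list 3 of 23 genes were called higher and 2 lower, beside 3.51% and 6.97% of all genes. The median was 0.02, and 1 was called higher in every omission except that of 0 h array B. Igfals, the acid-labile subunit that carries IGF1 in blood, was at 9.17 to 9.45 at 0 h and at 7.99, 7.80 and 7.70 at 30 h, and fell by 1.51 (SE 0.31, adjusted p = 0.00337) under every omission. Igfbp1, an IGF-binding protein induced by fasting and injury, was at 8.48, 8.64, 7.50 and 6.77 at 0 h and at 9.89, 10.16 and 9.66 at 30 h. It rose by 2.13 (SE 0.65, adjusted p = 0.0373), a call that only the omission of 0 h array B left in place.

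Cyp7a1 and some other bile acid genes fell, while calls among cytochrome P450 genes went both ways. Of 19 genes of bile acid synthesis and transport 3 were called lower and 0 higher, with a median of -0.41, and 1 was called lower without 30 h array B and 5 without 30 h array C. Cyp7a1, the rate-limiting enzyme of bile acid synthesis, was at 7.80, 6.76, 7.39 and 7.45 at 0 h and at 5.05, 5.06 and 5.24 at 30 h. The arrays of each time lay within about 1 unit of each other, and Cyp7a1 fell by 2.23 (SE 0.58, adjusted p = 0.0165), lost without 30 h array A or B. Hsd3b7, an enzyme of the same pathway, fell by 1.19 (SE 0.23, adjusted p = 0.00204) under every omission, and Fgfr4, the receptor through which FGF15 restrains Cyp7a1, by 0.48 (SE 0.11, adjusted p = 0.00915), lost without 30 h array B. Among 25 cytochrome P450 genes 4 were called lower and 2 higher, with a median of -0.35, but every omission left 0 to 2 lower, with 0 without 0 h array B or 30 h array A or B. Cyp2b10, a drug-inducible member, was the largest of the higher ones, at 7.45, 9.13, 9.61 and 7.86 at 0 h and 10.44, 9.93 and 10.56 at 30 h. Its difference of 1.71 (SE 0.54, adjusted p = 0.0423) passed in only 2 of the 7 omissions, those of 0 h arrays B and C. Dio1, the deiodinase that activates thyroid hormone, fell by 1.81 (SE 0.55, adjusted p = 0.035), with overlapping groups, 5 of 7 omissions ending the call and a level of 3.67 in array A against 5.50 and 6.51 in arrays B and C. Car5a, a mitochondrial carbonic anhydrase that supplies bicarbonate to the urea cycle and gluconeogenesis, fell by 2.06 (SE 0.48, adjusted p = 0.00844) under every omission.

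The list of proteins that hepatocytes secrete had the most members called lower. Of 41 tested members 15 were called lower and 1, Apoa4, higher, while 37 had a negative difference and the median was -0.34. Without 30 h array A only 2 were called lower and the median was -0.24, and the other omissions gave between 8 and 13. Ttr, the carrier of thyroxine and retinol-binding protein, had levels of 11.53, 11.27, 11.34 and 11.46 at 0 h and of 8.93, 10.87 and 10.79 at 30 h. Klkb1, plasma prekallikrein, had 7.58, 7.55, 7.55 and 7.74 against 5.74, 6.43 and 7.07. The times did not overlap in either gene and array A was lowest in both. Ttr fell by 1.25 (SE 0.37, adjusted p = 0.0333), a call that every omission except those of 30 h arrays B and C ended, and Klkb1 fell by 1.24 (SE 0.28, adjusted p = 0.00655), lost without array A. Serpinf2, the antiplasmin gene, fell by 0.87 (SE 0.21, adjusted p = 0.0116) and F13b, a subunit of clotting factor XIII, by 0.70 (SE 0.16, adjusted p = 0.00915), each lost without array A. The second Serpinf2 probe set had a difference of 0.03.

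Among 26 hepatocyte transcription factors 4 were called lower and 2 higher, with a median of -0.22, and 1 was called lower without 30 h array B and 2 without 0 h array C or D or 30 h array C. Cebpa, which maintains the differentiated hepatocyte, was at 11.59, 11.33, 11.28 and 11.30 at 0 h and at 9.70, 10.48 and 10.86 at 30 h. It fell by 1.01 (SE 0.32, adjusted p = 0.0406), and the call was kept only without 30 h array C, whereas Cebpb rose as given above. Nr5a2, a nuclear receptor of bile acid genes, fell by 0.93 (SE 0.23, adjusted p = 0.0118), lost without 30 h array B. Foxa2, a pioneer factor, fell by 0.80 (SE 0.21, adjusted p = 0.0188), lost without 0 h array C or 30 h array C. Urea cycle and amino acid catabolism gave 4 of 29 called lower and 2 higher, with a median of -0.35, and 1 lower without 30 h array A and 2 without 0 h array A, C or D. Tat, tyrosine aminotransferase, a glucocorticoid-induced enzyme, was at 12.04, 12.05, 11.90 and 11.46 at 0 h and at 13.06, 13.12 and 13.18 at 30 h. The 30 h arrays were all higher and nearly equal, and Tat rose by 1.23 (SE 0.18, adjusted p = 0.000133) under every omission. Arg1, the last enzyme of the urea cycle, rose by 0.59 (SE 0.14, adjusted p = 0.00855), lost without array A. Glul, glutamine synthetase, a marker of hepatocytes around the central vein, was at 7.79 to 8.02 at 0 h and at 5.51, 7.20 and 7.40 at 30 h. Its fall by 1.16 (SE 0.37, adjusted p = 0.0464) was called only without 30 h array B or C, and its second probe set differed by 0.18.

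On some genes the 30 h arrays lay far apart from each other, whether or not the times were also separated. Of the 8262 probe sets with 1 gene, array A was at least 1 unit above both B and C in 213 and at least 1 unit below both in 121. Of these 334 probe sets 57 were called at 30 h, beside 839 of all 8262. Counts of probe sets on which array B or C stood apart are not given here. The genes named here were chosen after their values were seen, from those with the widest gap between array A and both others. G6pc, glucose-6-phosphatase, was at 10.62, 9.79, 9.65 and 9.33 at 0 h, at 10.53 in array A and at 7.39 and 7.23 in arrays B and C. Pdk4, a kinase that shuts off glucose oxidation, was at 5.46 to 5.77 at 0 h, at 6.79 in array A and at 9.73 and 10.10 in B and C. Denn2b was at 7.09 to 7.52 at 0 h, at 6.83 in array A and at 11.05 and 11.63 in the other two. In these 3 genes array A was nearer to the resting livers than arrays B and C were. Upp2, a uridine phosphorylase of the liver, went the other way, at 9.88 to 11.01 at 0 h, 6.82 in array A and 10.66 and 11.10 in B and C. None of the 4 was called, with adjusted p = 0.249 for G6pc, 0.0646 for Pdk4, 0.0857 for Denn2b and 0.623 for Upp2.

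**Figure D3:**
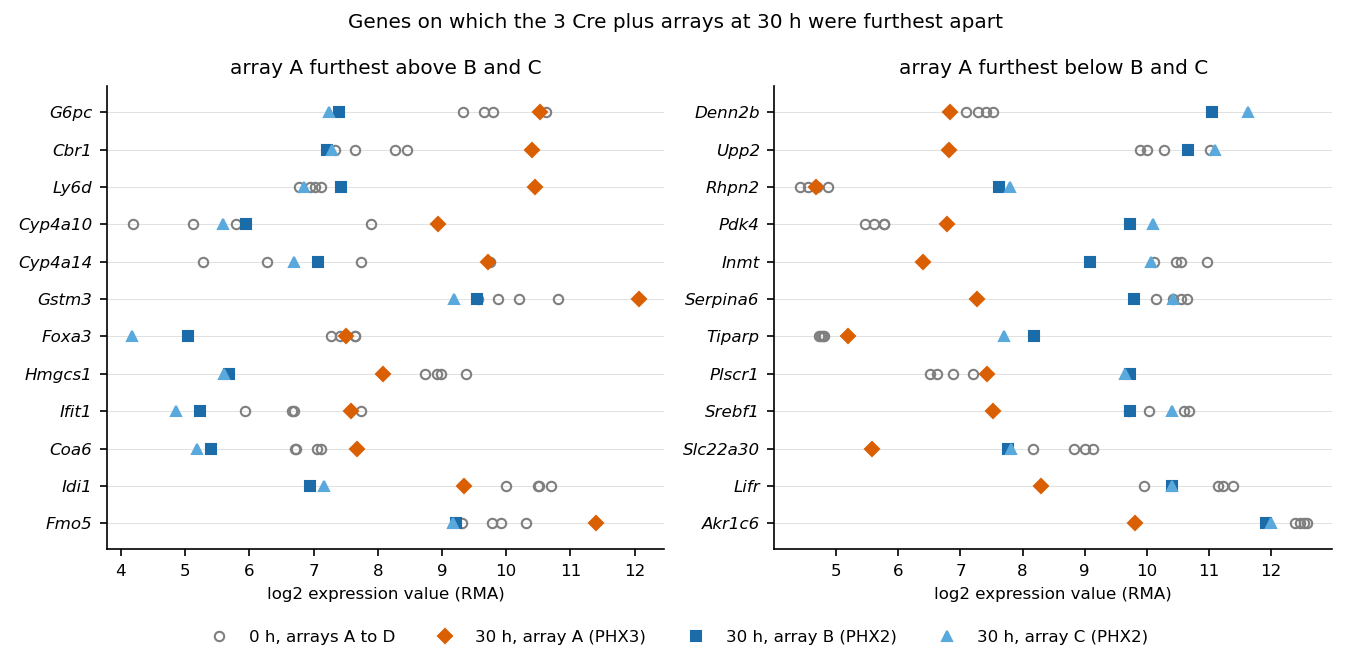
Log2 expression value (horizontal axis) of the 12 genes on which 30 h array A was furthest above and the 12 on which it was furthest below arrays B and C, beside the 4 arrays at 0 h (open circles). Hmgcs1, Idi1, Inmt and Tiparp, which were called at 30 h against 0 h, are among them.

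Several other genes were among those with the largest differences. Alpl, the tissue-nonspecific alkaline phosphatase, was at 6.33, 6.76, 6.71 and 6.29 at 0 h and at 9.01, 9.25 and 9.37 at 30 h. Erbb3, a receptor for neuregulin, was at 9.05, 8.77, 8.51 and 8.61 and then at 7.18, 5.88 and 5.82. Tsc22d1, a transcriptional regulator that transforming growth factor beta induces, was at 9.31, 8.89, 8.28 and 8.73 and then at 5.44, 5.86 and 5.67. All 3 genes separated the times by more than 1 unit in every pair of arrays. Alpl rose by 2.64 (SE 0.39, adjusted p = 0.000172), Erbb3 fell by 2.34 (SE 0.44, adjusted p = 0.00175) and Tsc22d1 fell by 3.14 (SE 0.42, adjusted p = 5.24e-05), all under every omission. The second Erbb3 probe set was at a mean of 5.71 at 0 h and 5.70 at 30 h. Mrap, an accessory protein of the melanocortin receptor, rose by 2.97 (SE 0.62, adjusted p = 0.00399), Retreg1, which directs endoplasmic reticulum to autophagy, by 2.60 (SE 0.53, adjusted p = 0.0037) and St3gal5, the synthase of ganglioside GM3, by 2.47 (SE 0.45, adjusted p = 0.00135). Those 3 calls were also held by every omission.

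In the list of regeneration growth factors and cytokines 4 of 33 genes were called higher and 5 lower, with a median of -0.06, and 2 were called higher without 0 h array C or 30 h array B. Notch1, a receptor of cell fate decisions, was at 8.05, 7.80, 7.58 and 7.75 at 0 h and at 6.76, 6.84 and 6.74 at 30 h. It fell by 1.005 (SE 0.10, adjusted p = 6.41e-07) under every omission. Its second probe set was at a mean of 5.27 at 0 h and 5.12 at 30 h (adjusted p = 0.569). Inhbb, the activin B subunit, rose by 1.53 (SE 0.40, adjusted p = 0.0175) from between 3.64 and 3.90, values below the 30th percentile of all 4 arrays that leave its size uncertain, lost without 0 h array C or D or without 30 h array B. Inhbc, the activin C subunit made by hepatocytes, fell by 1.12 (SE 0.24, adjusted p = 0.00524) under every omission. Ctnnb1, beta-catenin of the Wnt pathway, was at 8.63 to 9.12 at 0 h and at 8.71, 7.04 and 5.78 at 30 h. The groups overlapped through array A, and its fall by 1.56 (SE 0.49, adjusted p = 0.0423) was called only without that array. Of 18 clock genes 4 were called higher and 1 lower, with a median of 0.39, and 2 were called higher without 0 h array D or 30 h array B or C. Noct, a rhythmic deadenylase-related protein, rose by 2.42 (SE 0.49, adjusted p = 0.00303) and Per1, a core repressor, by 0.72 (SE 0.15, adjusted p = 0.00392), while Nr1d1, the repressor REV-ERB alpha, fell by 1.20 (SE 0.29, adjusted p = 0.0098), lost without 30 h array A. The second Noct probe set had a difference of -0.11. The sources used here do not give the time of day at which livers were taken, and its part in these differences was not tested.

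Interferon-response genes, which the inducing injection is known to raise, gave 5 of 29 called lower and 0 higher, with a median of -0.37. That median was -0.64 without 30 h array A and -0.18 without 0 h array D, and it was -0.61 within PHX2 and -0.04 within PHX3. When arrays were left out, the count was 1 without 0 h array D or 30 h array B, between 2 and 3 without 0 h array A, B or C or 30 h array C, and 6 without 30 h array A. Ifi47, an interferon-induced GTPase, was at 5.82, 6.03, 5.66 and 6.44 at 0 h and at 4.86, 4.55 and 4.57 at 30 h. The groups did not overlap, only 1 of the 3 arrays at 30 h was above its 30th percentile, and Ifi47 fell by 1.28 (SE 0.27, adjusted p = 0.00395) under every omission. Irf1, a transcription factor of the pathway, fell by 0.80 (SE 0.22, adjusted p = 0.0217), lost without 0 h array D or without 30 h array B or C. Summed over 10 markers of Kupffer cells, the resident macrophages, levels ran from 10.94 to 11.53 at 0 h and from 10.43 to 10.99 at 30 h. Of those 10 markers 1 was called, Cd5l, which fell by 1.14 (SE 0.36, adjusted p = 0.0432) with overlapping groups, and 5 of the 7 omissions ended the call. In the longer list of 16 Kupffer cell and macrophage genes 2 were called lower and 0 higher, with a median of -0.39, and 1 in 5 of the 7 omissions. Mpeg1, a pore-forming protein of macrophages, was at 8.59, 8.56, 8.22 and 8.40 at 0 h and at 6.93, 7.35 and 7.43 at 30 h, and fell by 1.20 (SE 0.27, adjusted p = 0.00601) under every omission. Clec4f, a lectin specific to Kupffer cells, was at 8.602, 8.01, 7.75 and 7.96 and then at 7.09, 7.36 and 7.74 (difference -0.68, SE 0.24, adjusted p = 0.0755). The part of macrophage content in the interferon-response genes was not tested.

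Of 14 tested endothelial genes 5 were called lower and 1 higher, with a median of -0.21 and 8 that did not pass. Without 0 h array A, C or D or without 30 h array A or B, 3 were called lower. Kdr, the main receptor for vascular endothelial growth factor, was at 6.09, 6.25, 6.32 and 6.29 at 0 h and at 5.59, 5.86 and 6.05 at 30 h, and fell by 0.42 (SE 0.09, adjusted p = 0.0046). Mrc1, the mannose receptor of sinusoidal endothelium and macrophages, fell by 0.76 (SE 0.14, adjusted p = 0.00159), and Fcgr2b, an Fc receptor of the same sinusoidal cells, by 0.98 (SE 0.23, adjusted p = 0.00933). All 3 calls were held by every omission. The 4 endothelial markers on the array summed to 8.11 to 8.24 at 0 h and to 7.91 to 8.11 at 30 h, and of these Pecam1 and Cdh5 were not called (adjusted p = 0.892 and 0.959). Erythroid markers summed to 9.82 to 10.86 at 0 h and 8.84 to 10.11 at 30 h, and neutrophil markers to 8.24 to 8.42 and 8.34 to 8.48, with 0 of either called. Lists of neutrophil, T and NK cell, B cell and cholangiocyte genes had 0 called of 9, 8, 10 and 6 tested.

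Stress and housekeeping lists are given beside the shares over all genes, 3.51% higher and 6.97% lower. Among 43 genes of endoplasmic reticulum chaperones and secretion 0 were called (median -0.07), among 57 of the mitochondrial respiratory chain 1 (median -0.09) and among 34 proteasome subunits 1 (median 0.24, and 0.03 without 30 h array A). The ATF4 stress list had 4 of 30 higher and 2 lower with a median of -0.02, with 1 to 4 called higher when an array was left out, led by Cebpb and by Slc38a2, a transporter of neutral amino acids that rose by 1.68 (SE 0.47, adjusted p = 0.0244), lost without 0 h array C or D or without 30 h array B or C. Chaperonins and heat shock proteins had 3 of 25 called higher and 1 lower, and a median of 0.12 that was 0.01 without 30 h array A. Hsp90aa1, the inducible form of HSP90, was at 8.22, 8.31, 8.41 and 8.52 at 0 h and at 9.82, 9.83 and 9.86 at 30 h, a rise by 1.496 (SE 0.29, adjusted p = 0.00229) under every omission. Hspa4, an HSP110-type chaperone, fell by 1.72 on the probe set of highest mean (adjusted p = 0.0283) but rose by 0.37, 0.71 and 0.77 on 3 others that were called, so the array gives it no single direction. Among actin and tubulin genes 5 of 33 were called higher and 3 lower, and every omission gave fewer, with 1 higher without 0 h array D or 30 h array A. The list includes Actg1, cytoplasmic gamma actin, which rose by 1.93 (SE 0.40, adjusted p = 0.00399) under every omission. Krt8, a keratin of hepatocytes, rose by 1.43 (SE 0.35, adjusted p = 0.0118), with 11.82 in array A, 10.97 in B and 10.21 in C against 9.38 to 9.79 at 0 h, and the call was lost without array A.

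The same interval in Cre minus livers gave 290 called probe sets (3.14%), 93 higher and 197 lower, with 4 arrays at 30 h and 4 at 0 h. By 1 probe set per gene, 0.973% of genes were higher and 2.39% lower. Of the 915 probe sets called in Cre plus livers 178 were also called in Cre minus livers in the same direction, which is 19.5% of the former and 61.4% of the latter, and 0 were called in opposite directions. The sign was the same in 883 of the 915, and the share with the same sign over all tested probe sets is not given here. Whether a change differed between the genotypes was tested as the difference of the differences, and 1 of 9249 probe sets (0.0108%) was called, that of Notch1, while 409 reached p under 0.05 before adjustment, beside 462.5 that chance would give. Notch1 changed by -1.005 in Cre plus and by -0.15 (SE 0.09) in Cre minus livers, so that the genotypes differed by -0.86 (SE 0.13, adjusted p = 0.00839). In Cre minus livers its level was 7.04, 7.02, 6.84 and 6.94 at 0 h and 6.82, 6.88, 6.89 and 6.67 at 30 h. Cre plus arrays were thus above all Cre minus arrays at 0 h and within their range at 30 h. Without Cre plus 30 h array A the adjusted p for Notch1 was 0.0696, and with only the 15 arrays of the 2 times it was 0.116. Without 3 arrays whose mean correlation with their group was under 0.95 (Cre plus 30 h A, Cre minus 30 h C and Cre plus 40 h D), a choice made after seeing the data, 184 probe sets were called. For Ddit4, Cre plus 30 h array A was at 6.89, beside 8.37 and 8.11 in arrays B and C. Cre minus 30 h array C was at 7.10, beside 5.77 to 6.29 in the other Cre minus arrays of 30 h. For such genes leaving out both arrays widens the genotype difference by itself, so the count of 184 is no separate support.

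**Figure D4:**
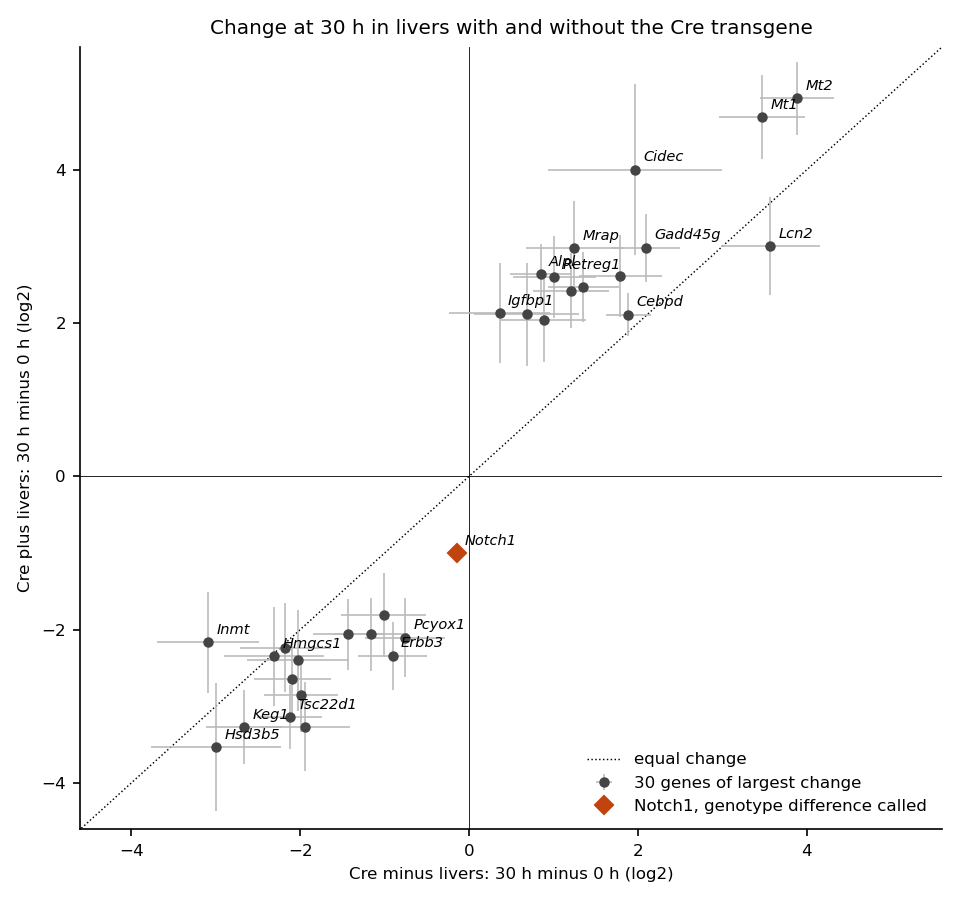
Change at 30 h in Cre minus livers (horizontal axis) and in Cre plus livers (vertical axis), both log2 differences, for the 30 genes of largest change in Cre plus livers and for Notch1. Bars are 1 SE and the dotted line marks equal change; Notch1, at -0.15 and -1.005, is the gene whose genotype difference was called.

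For the other genes named above the genotype difference was not called over all 32 arrays. Mt2 rose by 3.88 in Cre minus livers (adjusted p = 2.19e-05) and by 4.93 in Cre plus livers, a genotype difference of 1.05 (SE 0.65, adjusted p = 0.975). Alpl was higher by 0.85 in Cre minus livers (adjusted p = 0.236), with levels of 7.20, 7.65, 7.50 and 6.78 at 30 h beside 6.39 to 6.52 at 0 h. Its genotype difference of 1.79 (SE 0.54) had an adjusted p of 0.975 over all 32 arrays and of 0.0488 over the 15 arrays of the 2 times, where it was the 1 call. Lpin1 had a Cre minus difference of 0.39 (adjusted p = 0.825), with 10.30 in 1 array at 30 h and 6.31 to 7.69 in the other 3. Hmgcs1 fell by 2.31 in Cre minus livers (adjusted p = 0.0318), with 9.13, 7.85, 5.57 and 5.29 at 30 h. That spread was wider than among the Cre plus arrays of 30 h (standard deviation 1.85 against 1.41).

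Within the Cre plus time course the steps into and out of 30 h gave no calls with all arrays. At 20 h against 0 h 839 probe sets were called (9.07%), 328 higher and 511 lower, and at 40 h 893 (9.66%), 332 higher and 561 lower, all against the same 0 h arrays as at 30 h. From 20 to 30 h and from 30 to 40 h 0 probe sets (0%) were called by limma (lowest adjusted p = 0.587 and 0.601), while 724 and 480 reached p under 0.05 before adjustment, beside 462.5 that chance would give. Without the 3 arrays named above the 2 steps gave 10 and 812 calls. The Mt1 difference from 0 h was 4.77 at 20 h, 4.68 at 30 h and 4.13 at 40 h. For Keg1 the 3 differences were -3.22, -3.27 and -2.97, and for Notch1 -0.79, -1.005 and -0.84. Cdkn1a was higher than at 0 h by 0.79 at 20 h (adjusted p = 0.161), 1.39 at 30 h and 0.73 at 40 h (adjusted p = 0.173). Alpl was at 7.26, 7.26, 9.24 and 7.90 at 20 h and at 7.42, 8.79, 7.39, 8.14 and 9.04 at 40 h, so that its 30 h arrays overlapped both. Genes of cholesterol synthesis were called lower in 11 of 16 cases at 20 h and 14 of 16 at 40 h, beside 5 of 16 at 30 h, with medians of -1.39, -1.65 and -1.13. Those counts rest on 4, 5 and 3 arrays, and with the 7 arrays of 0 and 30 h alone 12 of 16 were called lower at 30 h. Ribosome biogenesis genes were called higher in 23 of 56 cases at 20 h, 15 at 30 h and 19 at 40 h.

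**Figure D5:**
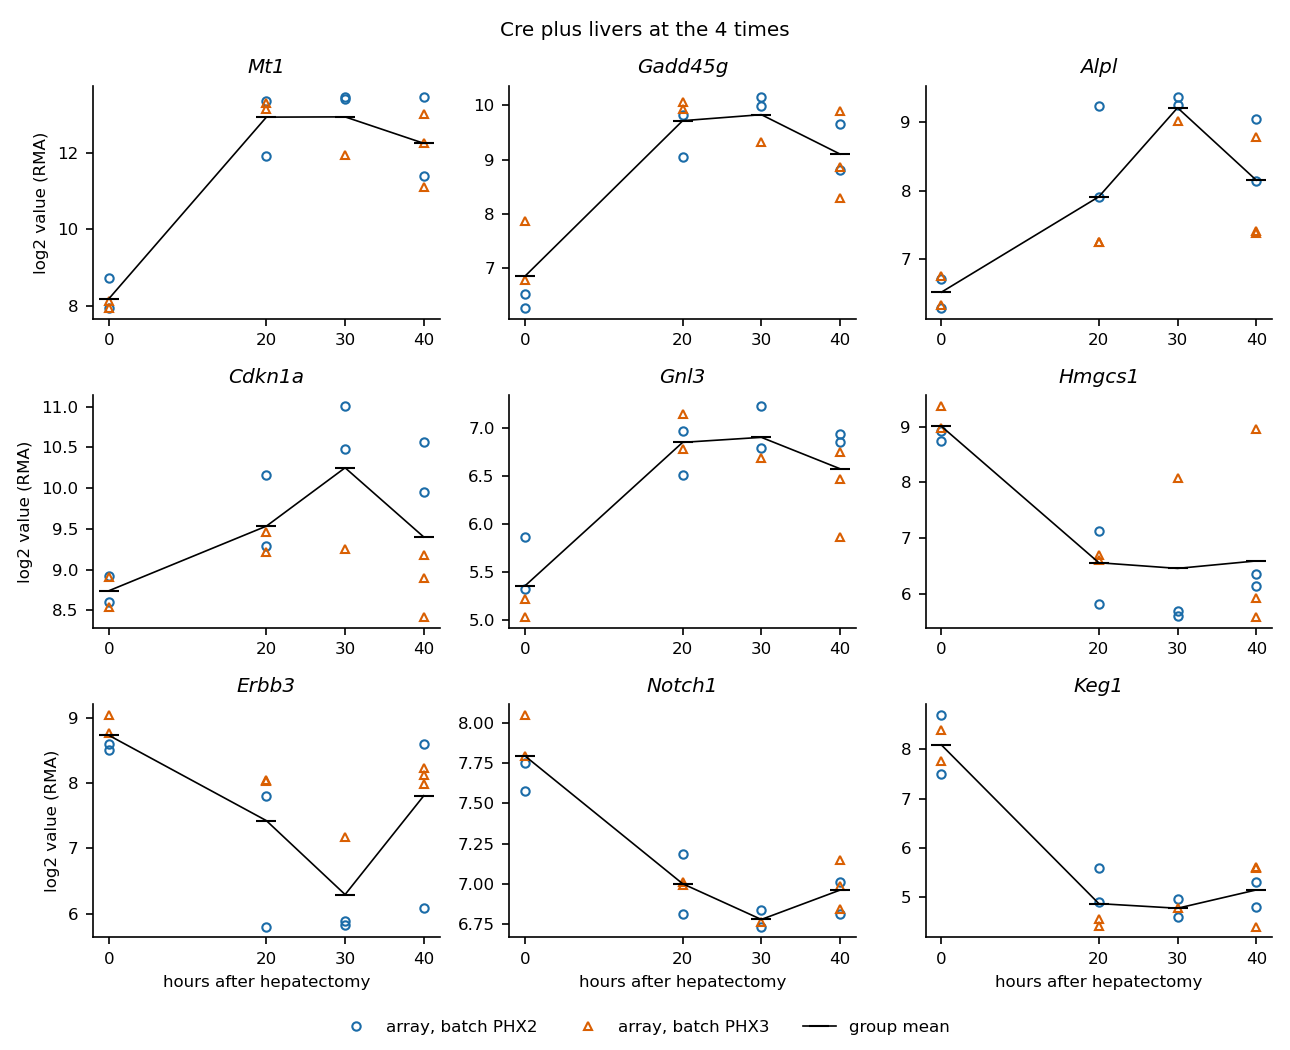
Log2 expression value of 9 genes in every Cre plus array at 0, 20, 30 and 40 h after hepatectomy (horizontal axis, hours). Circles are arrays of batch PHX2, triangles arrays of PHX3, and the line joins group means. Most of the distance between 0 h and 30 h is already present at 20 h for Mt1, Gadd45g, Gnl3, Hmgcs1, Notch1 and Keg1.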

How the data were processed

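Liver RNA was hybridised to 32 Affymetrix arrays of 1 colour. The deposited values are on a log2 scale, as their range of 2.30 to 14.12 shows, and the authors made them by RMA, which the submitters' processing notes name without a version. RMA corrects background, quantile-normalizes the arrays and summarises the probes of a set, so that a change shared by most genes is removed. No further scaling was applied here, and every value column was mapped to a sample (0 were not).

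Of 12488 probe sets, 66 controls were left out, and 10833 of the others have 1 gene in the platform annotation, 396 several and 1193 none. Those that exceeded the 30th percentile of the array in 3 or more arrays were tested with limma 3.58.1 in R 4.3.3, over all 32 arrays, with 8 groups of genotype and time and the batch, and p-values were adjusted by Benjamini-Hochberg over all 9249. The fit was checked on simulated data. A gene in a list is represented by 1 probe set, that of highest mean level. Named genes were the 15 highest and 15 lowest called, up to 5 members of each of 44 lists and a set of anchor genes. The comparison, lists and members were chosen with earlier results of these data known. Replicate letters do not pair the arrays: same-letter deviations at 0 h and 30 h correlated at -0.00, -0.27 and 0.14. Alternatives varied the arrays, batch, filter, scaling, variance model and replicate block. The number of arrays limits the precision. Promoters are RefSeq sequences (GRCm38.p6).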

Additional observations from a re-analysis of the deposited data

Results flagged for a closer look

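Among 240 genes, 1 of the 4 resting Cre plus arrays stood apart from the other 3 for 8 genes, and chance alone flags about 1 in 20 groups of 4. Hsd3b5 was at 7.54 in array C, beside 9.81 to 10.22 in the others. Cks2 was at 6.90 in array D, beside 7.69 to 7.73. Igfals was at 9.17 in array A, beside 9.41 to 9.45, and Cebpa was at 11.59 in array A, beside 11.28 to 11.33. Klkb1 was at 7.74 in array D, beside 7.55 to 7.58, and Tpm4 was at 7.64 in array A, beside 7.31 to 7.35. Psmb9 was at 7.84 in array C, beside 8.06 to 8.09, and Prtn3 was at 6.84 in array D, beside 6.67 to 6.69. Notch1 differed between the genotypes in its change at 30 h by -0.858 (limma adjusted p = 0.00839).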

How the results depend on the processing

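The 915 probe sets called at 30 h against 0 h became 1472 with the 7 Cre plus arrays alone, 26 in PHX2 alone, 289 in PHX3 alone (1 array at 30 h, assumed to vary like the other groups), 3592 with array weights and 246 with a 2-fold minimum, and ranged from 423 to 647 when an array was left out. With the replicate block 629 were called, although the letters do not pair the arrays. The 165 called list members became 248, 13, 64 and 465 under the first 4 of these, and 88 to 134 over the omissions. The 30 genes of largest change kept 9 calls in PHX2, 14 in PHX3 and 20 to 27 over the omissions. The 1 genotype call became 0 in either batch alone, 1587 with array weights and 184 without the 3 arrays that correlate less with their group, and 0 to 1 over the omissions; among named genes these were 0, 0, 91 and 14, and 0 to 1. From 20 to 30 h the count of 0 became 132 in PHX3, 1159 with array weights and 10 without the 3 arrays, and from 30 to 40 h 1 in PHX2, 1381 and 812, with 0 when any 1 Cre plus array of 0 or 30 h was left out (20 and 40 h arrays were not left out singly). The cause of these shifts was not tested. Differences that turned sign belonged to genes not called: Rps6 (omissions -0.0475 to 0.268) -0.0437 in PHX3, -0.0475 without 0 h array D and -0.0191 without 30 h array B; Ccnd1 (omissions -0.285 to 0.596) -0.359 in PHX2, -0.319 with array weights, -0.285 without 30 h array A and -0.456 without the 3 arrays. No called gene named here reversed under any setting run.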
